A study of Homo sapiens with 18 samples.

Results

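The Hippo kinase cascade and NF2 were followed in subcutaneous xenografts in which YAP1, the factor that this cascade holds in check, was targeted with an inducible shRNA. The members were 10 genes chosen by symbol for their place in the pathway, with earlier results of these data known: the upstream genes NF2, WWC1 and TAOK1, the kinases STK3 and STK4 with their scaffold SAV1, and the kinases LATS1 and LATS2 with their co-activators MOB1A and MOB1B. They take 11 of the 20555 entries of the table, because SAV1 has 2. In 18 tumors, 10 of the 11 entries, 1 for each gene, reached 1 FPKM in at least 4 tumors and were tested. FPKM is fragments per kilobase of transcript per 1000000 mapped fragments, a level corrected for gene length. The libraries were made by exome capture, in which probes enrich annotated exons, and FPKM does not correct for how well each gene was captured. Levels of different genes are therefore set side by side only roughly.

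The tumors grew from cells of MSTO-211H, a human cell line long established from a mesothelioma, that carry, from a stably transfected plasmid, a doxycycline-inducible shRNA against YAP1, and were implanted with Matrigel in SCID mice, which lack mature lymphocytes but keep their own fibroblasts, vessels and myeloid cells. Labels name 4 groups by hours on doxycycline, which switches the shRNA on: 5 tumors at 0h, 4 at 24h, 5 at 96h and 4 at 216h, each tumor from its own mouse. Drinking water held 5% glucose in every group, and, per the labels, 0.5 mg/ml doxycycline as well in the 3 later ones. Every group carries the plasmid, the 0h tumors included, and each group was housed as 1 cage group. No group here had doxycycline without the shRNA, or a later time without doxycycline. Cage, time, doxycycline itself and the shRNA therefore cannot be told apart. For the last group the labels give 216h of doxycycline, whereas the study's text describes a withdrawal period after 96h, and the tumors are called 216h here without settling this.

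In the Hippo pathway, the kinases STK3 and STK4 (MST2 and MST1), bound to the scaffold SAV1, phosphorylate and activate LATS1 and LATS2, which need MOB1A or MOB1B as co-activators. LATS1 and LATS2 then phosphorylate YAP1 and its relative TAZ, which are kept in the cytoplasm or degraded and cannot work with TEAD transcription factors. NF2 (merlin), a membrane-linked scaffold, brings LATS1 and LATS2 to the membrane, WWC1 (KIBRA) acts with it, and TAOK1 can phosphorylate STK3 and STK4. Loss of NF2 or of LATS2 is frequent in mesothelioma, and the study describes this line as Hippo deleted. A gene-level FPKM does not show which exons a transcript holds, nor the amount or activity of the kinase.

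The stretches before 4 of the genes are shown because LATS1, SAV1 and LATS2 passed the test in a comparison described here and NF2 is the tumor suppressor most tied to this cancer. They come from the RefSeq promoter table on GRCh38.p14, 5′ to 3′ on the strand of the gene. Those of LATS1, SAV1 and NF2 end where the gene begins in GENCODE release 29, and that of LATS2 ends at the start in the RefSeq table, which lies before the GENCODE start at 21061547. They were searched for GGAATG, the core of the element bound by TEAD factors, on both strands (CATTCC on the other), and a match would stand in capitals.
LATS1, chr6:149718257-149718351, minus strand: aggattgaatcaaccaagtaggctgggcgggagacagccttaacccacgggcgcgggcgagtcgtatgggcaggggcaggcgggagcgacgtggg
LATS2, chr13:21061587-21061836, minus strand: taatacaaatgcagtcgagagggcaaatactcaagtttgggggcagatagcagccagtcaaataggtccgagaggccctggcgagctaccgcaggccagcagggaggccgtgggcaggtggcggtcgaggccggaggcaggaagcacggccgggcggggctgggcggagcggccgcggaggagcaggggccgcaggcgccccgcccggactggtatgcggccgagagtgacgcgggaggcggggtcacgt
SAV1, chr14:50668332-50668556, minus strand: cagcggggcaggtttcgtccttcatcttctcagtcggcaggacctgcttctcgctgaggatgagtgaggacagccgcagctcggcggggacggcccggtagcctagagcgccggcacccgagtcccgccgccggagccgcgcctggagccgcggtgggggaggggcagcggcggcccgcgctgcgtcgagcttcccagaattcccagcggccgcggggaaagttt
NF2, chr22:29603306-29603555, plus strand: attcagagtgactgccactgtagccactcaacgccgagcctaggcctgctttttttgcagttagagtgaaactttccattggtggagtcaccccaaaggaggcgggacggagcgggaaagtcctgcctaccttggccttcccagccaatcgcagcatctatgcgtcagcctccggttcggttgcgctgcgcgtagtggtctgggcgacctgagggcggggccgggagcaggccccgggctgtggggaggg

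None of these 4 stretches holds the motif as printed, and GC bases make up 66.3%, 69.6%, 71.6% and 62.4% of them in the order shown. Over windows of 300 bases that run from 250 before to 50 after a start, 13 windows matched 9 of the members and 1 of them held the motif, against 4928 of all 35116 windows (14.0%). That window belongs to LATS2, and the match, at chr13:21061572-21061577 on the minus strand, lies between the RefSeq start and the GENCODE start, just beyond the stretch printed for LATS2. With 10 bases on each side, it reads as follows, with the motif in capitals.
LATS2, chr13:21061562-21061587, minus strand: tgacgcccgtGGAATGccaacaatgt

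A match describes these letters only, and binding of a TEAD factor was not measured here.

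The knockdown was read from YAP1 and from 2 known YAP1-TEAD targets, CCN1 (listed as CYR61) and CCN2 (listed as CTGF). YAP1 was at 7.26 ± 1.96 FPKM (SD, n = 5) at 0h, 5.81 ± 1.61 (n = 4) at 24h, 4.77 ± 1.41 (n = 5) at 96h and 7.18 ± 1.45 (n = 4) at 216h, and it passed the threshold of an adjusted p under 0.05 in none of the comparisons with 0h (limma, adjusted p between 0.221 and 0.999). CCN1 was lower at 96h (log2 fold change -0.42, SE 0.0956, adjusted p = 0.0353) and 216h (log2 fold change -0.86, SE 0.101, adjusted p = 2.5e-05), and CCN2 at 216h (log2 fold change -0.94, SE 0.199, adjusted p = 0.00253). Among 15 mesothelial or mesothelioma markers, 7 passed the filter on low values, and MSLN, CALB2 and WT1 averaged 4.06, 2.45 and 0.198 FPKM at 0h. At 216h these 3 averaged 3.29, 2.54 and 0.261 FPKM. The sum of the 15 was 353 to 437 FPKM at 0h and 174 to 248 at 216h, most of it from the keratins KRT18 (mean 191 and 76.2) and KRT8 (184 and 106). Of the 7, 2 were lower at 96h and 2 at 216h, beside 121 and 410 of all 11379 genes tested. KRT8 also stands in the study's list of positive YAP1/TAZ-TEAD effectors, and whether its values follow cell identity or YAP1 was not tested. Of the summed FPKM of a tumor, 13 mitochondrially encoded genes took 74.9% to 84.8%, with the lowest shares, 74.9% to 76.0%, in the 216h tumors. Between 4767 and 6491 entries were listed at 0, and a gap between 5179 and 5593 left 10 tumors with many zeros (all of 0h, 2 of 24h and 3 of 216h) and 8 with few (2 of 24h, all of 96h and 1 of 216h).

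In FPKM, which is not corrected for capture, the 10 genes differed more among themselves than with time. MOB1A had the highest level at 0h, 39.9 ± 4.32 FPKM (SD, n = 5), followed by STK4 at 25.2 ± 3.56 and TAOK1 at 19.5 ± 3.07. WWC1 was at 8.32 ± 1.78, NF2 at 7.20 ± 0.824, STK3 at 5.74 ± 3.13, LATS1 at 5.48 ± 0.971, MOB1B at 5.15 ± 1.39, LATS2 at 3.99 ± 0.44 and SAV1 at 3.44 ± 0.431 FPKM. MOB1A lay at the 92.7th percentile of the genes tested at 0h and SAV1 at the 37.9th. Of the 9 pairs of neighbours in that order, only MOB1A with STK4 and TAOK1 with WWC1 had ranges that did not overlap at 0h, and both pairs kept their order in 18 of 18 tumors. The other 7 pairs of neighbours overlapped at 0h, and STK3 exceeded LATS1 in only 3 of 18 tumors although its mean at 0h was higher. The SD was between 10.8% (MOB1A) and 54.5% (STK3) of the mean at 0h, so that a change of a given size was far easier to detect in MOB1A than in STK3.

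Sequence shared with other genes can blur such levels, and this was measured among the human transcripts of GENCODE release 29. Sequence shared with mouse transcripts was not measured, and whether mouse reads were removed is not given. Of the stretches of 31 bases in LATS1 transcripts 1.35% also occurred in transcripts of another gene, against none in LATS2 and 6.79% in SAV1, the highest share among the members. LATS1 shared no stretch with LATS2, nor MOB1A with MOB1B, and STK3 and STK4 shared 2. MOB1B overlaps DCK and TAOK1 a lincRNA gene on the same strand. On the opposite strand, SAV1 overlaps ATL1, STK3 overlaps KCNS2, and LATS1, LATS2, STK3 and TAOK1 overlap antisense genes. Reads of genes on opposite strands cannot be told apart without strand-specific counting, which the sources used here do not state. Such counting would not separate genes on the same strand. Other overlaps, such as pseudogenes and small RNA genes, are left out here.

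The first question was how the upstream inputs of the cascade behaved. NF2 (ENSG00000186575.17, chr22:29603556-29698598, plus strand) changed past the threshold in no comparison. Its FPKM was 6.48, 6.92, 7.77, 6.48 and 8.33 in the 0h tumors and 5.49, 6.75, 5.55 and 7.28 in the 24h tumors. At 96h it was 6.16, 5.87, 5.88, 7.16 and 6.30, and at 216h 5.96, 6.27, 6.73 and 7.81. All 3 later means were lower than that at 0h, but the groups overlapped in each comparison. The log2 fold change was -0.18 at 24h (95% interval -0.41 to 0.06, adjusted p = 0.672), -0.17 at 96h (-0.39 to 0.05, adjusted p = 0.540) and -0.09 at 216h (-0.33 to 0.14, adjusted p = 0.595) in limma, all 3 against the same 0h tumors.

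WWC1 (ENSG00000113645.14, chr5:168291651-168472303, plus strand), which works with NF2 at the membrane, varied most at 96h. Its FPKM was 5.02, 4.98, 5.80, 14.3 and 6.89 in those tumors, so that 1 tumor had more than any of the 17 others and the remaining 4 lay at or below 6.89. At 0h it was 7.74, 8.30, 7.85, 6.43 and 11.3, at 24h 6.17, 5.07, 11.1 and 9.40, and at 216h 9.31, 11.1, 5.34 and 8.73. Means were 8.32, 7.94, 7.41 and 8.61 FPKM in order of time, and the limma adjusted p against 0h was between 0.769 and 0.956. TAOK1 (ENSG00000160551.11, chr17:29390464-29551904, plus strand), the kinase that can act on STK3 and STK4, ranged from 15.2 to 24.8 FPKM over the 18 tumors. Its means of 19.5, 19.0, 18.0 and 21.6 FPKM differed by less than the threshold requires (limma adjusted p between 0.456 and 0.974 against 0h). WWC1 and STK3 also stand in the study's list of positive YAP1/TAZ-TEAD effectors, and neither moved past the threshold here.

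The second question concerned the kinases that open the cascade. STK4 (MST1, ENSG00000101109.11, chr20:44966474-45079959, plus strand) had the higher FPKM of the pair in all 18 tumors. Its FPKM was 20.2, 26.1, 29.5, 23.5 and 26.9 at 0h, 17.3, 36.4, 34.6 and 28.2 at 24h, 26.8, 21.7, 24.5, 20.4 and 26.6 at 96h, and 23.7, 26.1, 22.1 and 25.7 at 216h. The 24h group held both the lowest value of all and the 2 highest. Against 0h the log2 fold changes were 0.16, -0.07 and -0.04 in order of time (limma adjusted p = 0.837, 0.905 and 0.896).

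STK3 (MST2, ENSG00000104375.15) had the widest spread relative to its mean among the members in the 0h and 216h groups. At 0h its FPKM was 4.98, 5.38, 10.9, 4.90 and 2.49, and at 216h 3.78, 3.92, 11.6 and 5.62, so that 1 tumor in each group stood at about the same high level. The 24h tumors were at 4.44, 6.53, 3.51 and 3.06, and the 96h tumors at 4.56, 3.63, 6.45, 3.34 and 5.30. The 95% intervals of its log2 fold changes against 0h ran from -0.91 to 0.41 at 24h, from -0.79 to 0.45 at 96h and from -0.56 to 0.76 at 216h, which leaves room for changes larger than those called in other members.

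SAV1 (ENSG00000151748.14, chr14:50632058-50668331, minus strand), the scaffold that holds STK3 or STK4 and promotes their activity, was higher at 216h than at 0h. Its FPKM was 3.02, 4.10, 3.58, 3.11 and 3.40 at 0h, 2.57, 3.33, 2.91 and 3.62 at 24h, 3.07, 3.19, 4.26, 3.23 and 4.64 at 96h, and 4.13, 5.01, 5.81 and 4.43 at 216h. All 4 tumors at 216h exceeded all 5 at 0h, though the lowest of them exceeded the highest 0h tumor only by a narrow margin. The mean was 40.7% higher, with a log2 fold change of 0.39 (SE 0.131, adjusted p = 0.0372, limma). The call was lost when any of 6 tumors was left out (0h replicates 1, 3, 4 and 5, and 216h replicates 2 and 3), with an adjusted p of up to 0.126, and when only the 2 groups were fitted (0.0703). The second SAV1 entry, chr14:50664256-50665125, corresponds to the single-exon transcript ENST00000602664.1, which overlaps no exon of the other SAV1 transcripts. It was listed at 0 in 5 tumors, reached 1.55 FPKM at most and was not tested.

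The third question concerned the kinases that act on YAP1 itself. LATS1 (ENSG00000131023.12, chr6:149658153-149718256, minus strand) had the largest change of any member in any of the 4 comparisons. Its FPKM was 4.61, 6.55, 4.75, 4.97 and 6.51 at 0h, 7.06, 6.71, 4.45 and 4.76 at 24h, 5.76, 5.39, 7.13, 5.98 and 7.13 at 96h, and 7.69, 8.52, 9.42 and 7.86 at 216h. Every tumor at 216h was above every tumor of the other 3 groups. Means were 5.48 ± 0.971, 5.74 ± 1.33, 6.28 ± 0.808 and 8.37 ± 0.787 FPKM (SD, n = 5, 4, 5 and 4), and the mean at 216h was 52.9% above that at 0h. The log2 fold change at 216h was 0.54 (SE 0.141, adjusted p = 0.00968, limma), and it stayed between 0.49 and 0.60 with an adjusted p of at most 0.0362 when each tumor of the 2 groups was left out in turn. At 96h it was 0.17 (SE 0.133, adjusted p = 0.633), and 216h against 96h gave 0.37 (SE 0.141, adjusted p = 0.0986) although those groups did not overlap.

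LATS2 (ENSG00000150457.8, chr13:20973032-21061547, minus strand), the paralog of LATS1 and itself described as a YAP1-TEAD target, was lower than LATS1 in all 18 tumors. Its FPKM was 3.97, 4.69, 3.55, 4.02 and 3.70 at 0h, 3.02, 3.79, 3.64 and 3.85 at 24h, 4.62, 3.40, 3.32, 3.12 and 3.88 at 96h, and 5.12, 4.03, 6.72 and 5.60 at 216h. In the 216h group 3 of 4 tumors exceeded every other tumor, and replicate 2 lay among the 0h values. Against 96h the mean was 46.2% higher (log2 fold change 0.44, SE 0.130, adjusted p = 0.0363, limma), and against 0h 34.5% higher (log2 fold change 0.34, SE 0.130, adjusted p = 0.0670). The call against 96h was lost without any of 6 tumors (96h replicates 2, 3 and 4, and 216h replicates 1, 3 and 4), with an adjusted p of up to 0.134, and that against 0h was gained without 0h replicate 2 (0.0478) or 216h replicate 2 (0.0210).

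MOB1A (ENSG00000114978.17, chr2:74152528-74178898, minus strand) and MOB1B (ENSG00000173542.8, chr4:70902326-71022449, plus strand), the co-activators of LATS1 and LATS2, passed the threshold in no comparison. MOB1A ranged from 33.1 to 48.2 FPKM with means of 39.9, 39.8, 36.1 and 42.4 in order of time, and its 95% intervals against 0h were the narrowest of the members, from -0.20 to 0.21 at 24h and from -0.12 to 0.29 at 216h on the log2 scale. MOB1B ranged from 3.22 to 7.11 FPKM with means of 5.15, 4.76, 4.25 and 4.77. Both genes were therefore present in every tumor, at levels that differed about as much within groups as between them.

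Counted over the cascade, 0 of 10 genes passed the threshold at 24h, where 0.158% of all 11379 genes tested did, and 0 of 10 at 96h, where 1.38% did. No member had groups that did not overlap at either time, against 2.79% and 4.19% of all genes. At an unadjusted p under 0.05 the count was also 0 at both times, against 1047 and 1487 of all genes. At 216h 2 of 10 passed against 0h, LATS1 and SAV1, both higher, where 23.3% of all genes passed and 19.7% were higher. The groups did not overlap in those 2 genes, as in 18.9% of all genes. Against 96h 1 of 10 passed, LATS2, where 11.1% of all genes passed, and 1 of 10 did not overlap, LATS1, where 15% of all genes did not. The share of members called was thus near that of all genes in each comparison. The median log2 fold change of the members was -0.08 at 24h, -0.12 at 96h and 0.09 at 216h, beside -0.04, 0.02 and 0.17 for all genes, and 3 of 10 members lay above the median of all genes at 216h. At 216h against 96h the median of the members was 0.25 beside 0.16 for all genes. All 10 log2 fold changes were positive, as were 74.5% of those of all genes, and 7 of 10 lay above the median of all genes. After median scaling these medians were 0.03 and -0.04, and STK4, MOB1A, MOB1B and NF2 were negative. The 3 comparisons with 0h share the 0h tumors.

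The values of most genes were higher at 216h, and the calls above depend on how this shift is treated. As deposited, 84.6% of the genes called at 216h against 0h were higher. After median scaling of the tumors the share was 43.8%, after quantile normalization 51.4%, and after rescaling without the mitochondrial genes 68.1%, when the median of all genes was 0.07. LATS1 had a log2 fold change of 0.43 (adjusted p = 0.0358) without the mitochondrial genes, where it was the single member called and 13.6% of all genes were called higher, 0.31 (adjusted p = 0.104) after median scaling and 0.32 (adjusted p = 0.0939) after quantile normalization, where 0 of 10 members and 17.7% of all genes were called, in limma. SAV1 lost its call under all 3, with log2 fold changes of 0.29, 0.18 and 0.17 and an adjusted p between 0.0873 and 0.296. NF2 was lower under median scaling (log2 fold change -0.32, adjusted p = 0.0382), where 11.2% of all genes were called lower, and came near the threshold after quantile normalization (-0.30, adjusted p = 0.0512). STK3, WWC1, MOB1A and TAOK1 changed sign between the scalings without passing the threshold. LATS2 at 216h against 96h kept a positive log2 fold change, 0.30, 0.24 and 0.24 under the 3 scalings, and lost its call (adjusted p between 0.162 and 0.287). Which scaling matches the amount of RNA per tumor cell cannot be told from these values.

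The split by the number of genes at 0 touched the comparisons unequally. Among tumors with many zeros, the log2 difference between 3 tumors at 216h and 5 at 0h was 0.58 for LATS1, 0.45 for SAV1 and 0.35 for LATS2, where the median of all genes was 0.18, and with the split as a covariate 2 members passed as before. No 96h tumor lies on the side of the 0h tumors, so that split and time cannot be told apart there. For LATS2 at 216h against 96h a single 216h tumor shares the side of the 96h tumors, 0.40 above their mean on the log2 scale, and with the covariate the adjusted p was 0.243.

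Markers of other cells differed in how far they moved with the 216h group. The summed FPKM of 10 fibroblast markers was 1343 to 1928 at 0h and 3640 to 4342 at 216h, and 8 of the 10 were higher at 216h. The 12 leukocyte markers summed to 58.6 to 89.5 at 0h and 105 to 186 at 216h, with 4 of 9 tested higher and 1 lower. The 10 endothelial markers summed to 10.0 to 15.7 and 15.0 to 22.6, with 1 of 6 tested higher. The 10 skeletal muscle markers summed to 2.58 to 66.8 and 6.83 to 114, with 1 of 9 tested higher. Of all genes 19.7% were higher, and the sums of the endothelial and muscle lists overlapped between 0h and 216h. These counts are for the values as deposited. DCN, a proteoglycan of fibroblasts, averaged 92.1 FPKM at 0h and 452 at 216h, and PTPRC, the pan-leukocyte phosphatase, 2.50 and 4.81. CD68, also of the leukocyte list, went the other way, with 20.0 and 14.3. CDH5, of the endothelial list, averaged 2.34 and 4.56. PECAM1, an endothelial marker, lay below the filter and overlapped between these groups, at 0 to 0.430 FPKM at 0h and 0.0259 to 0.427 at 216h. No marker of these 4 lists was at 0 in all tumors of the 0h or the 216h group. At 24h and 96h none of the genes tested in these 4 lists passed the threshold. Their part in the values of LATS1, SAV1, LATS2 and the lists described next was not tested. In a bulk tumor, a change in the mixture of cells and a change in RNA per cell cannot be told apart.

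The ratio of FPKM of paralogs within a tumor does not move with the scaling, although the log2 ratio of FPKM + 1 used for the tests does to some extent. The ratio of STK4 to STK3 was 4.06, 4.86, 2.70, 4.79 and 10.8 at 0h and 6.25, 6.67, 1.90 and 4.58 at 216h, that is, above 1 throughout and widely spread. LATS2 to LATS1 was 0.862, 0.717, 0.747, 0.810 and 0.569 at 0h, 0.428, 0.565, 0.818 and 0.808 at 24h, 0.802, 0.632, 0.466, 0.521 and 0.544 at 96h, and 0.665, 0.473, 0.713 and 0.713 at 216h. LATS1 thus had the higher FPKM in each tumor, and by a wider margin on average in all 3 later groups. MOB1B stood at 0.0737 to 0.165 of MOB1A over the 18 tumors. In 9 two-sided exact permutation tests against 0h on log2 of the ratio of FPKM + 1, none passed the threshold, and the adjusted p lay between 0.771 and 0.778. The smallest unadjusted p was 0.0952, for LATS2 to LATS1 at 96h (log2 difference -0.27, n = 5 and 5), where the exact test can reach 0.00794. With no pseudocount that difference was -0.33, with the same exact p. The change of LATS1 at 216h (0.54) and that of LATS2 (0.34) were therefore not shown to differ, with a log2 difference of the ratio of -0.20 and p = 0.190 in the exact permutation test.

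Other genes of the pathway were read from 5 lists of 93 genes, of which 84 were tested. Of these 84, 0 passed the threshold at 24h, beside 0.158% of all genes. At 96h 1 passed (1.19%), which is near the 1.38% of all genes. At 216h 27 passed against 0h (25 higher and 2 lower). Against 96h 18 passed (16 higher and 2 lower), beside 11.1% of all genes. After median scaling 3 of the 84 were higher and 2 lower, beside 321 and 336 of all 11379 genes. The 25 higher at 216h than at 0h make up 29.8% of the genes tested in these lists, beside 19.7% of all genes. After median scaling 11 were higher and 5 lower in that comparison, beside 8.72% and 11.2% of all genes. The 1 gene at 96h was MAP4K4, a kinase that can phosphorylate LATS1 and LATS2 in place of STK3 and STK4, with 18.6 FPKM at 0h and 26.4 at 96h (log2 fold change 0.49, adjusted p = 0.0287, limma), which held after median scaling (0.47, adjusted p = 0.00961).

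Among 26 tested upstream regulators, 5 were higher and 2 lower at 216h than at 0h, where 19.7% of all genes were higher. The median log2 fold change was 0.14 beside 0.17 for all genes. DCHS1, the cadherin that binds FAT4, averaged 0.626 FPKM at 0h and 2.68 at 216h (log2 fold change 1.18, adjusted p = 1.12e-05). RASSF2, which can bind STK3 and STK4, averaged 0.459 and 1.79 (0.93, adjusted p = 0.000103), and TAOK2, the relative of TAOK1, 3.33 and 6.47 (0.80, adjusted p = 0.000267). FRMD6, a FERM-domain protein related to NF2, averaged 122 and 70.9 FPKM and was lower (log2 fold change -0.78, adjusted p = 0.000178). All 4 kept their direction and their call in limma after median scaling, FRMD6 with -1.03 and DCHS1 with 1.01. RASSF2 lay below the filter level of 1 FPKM in every tumor at 0h (0.276 to 0.610) and 96h (0.511 to 0.860). It was at 1.35 to 2.25 at 216h, so that it was tested mainly because it is high there, and its call is no independent support. DCHS1 also lay below 1 FPKM at 0h (0.471 to 0.745) and was at 0.636 to 1.23 at 96h, against 2.31 to 3.32 at 216h. The 216h tumors alone were enough for DCHS1 to pass the filter, so its call is no independent support either.

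Of 18 tested MAP4K and related kinases, 8 were higher and 0 lower at 216h than at 0h, with a median of 0.39. For all genes the share higher was 19.7% and the median 0.17. MINK1, of the MAP4K group, averaged 7.80 and 12.02 FPKM (log2 fold change 0.56, adjusted p = 0.00124), and the NDR kinases STK38 and STK38L, which also bind MOB1 proteins, rose by 0.49 and 0.47 (adjusted p = 0.00615 and 0.0175). After median scaling 1 of the 18 remained called, beside 8.72% of all genes called higher. MINK1 was then at 0.32 with an adjusted p of 0.0325 in limma, while STK38 and STK38L were not called (0.0981 and 0.180).

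In the list of brakes on the cascade, led by the STRIPAK complex, which brings a phosphatase to STK3 and STK4, 8 of 24 were higher and 0 lower at 216h than at 0h, with a median of 0.36. These stood beside 19.7% higher and a median of 0.17 for all genes. SLMAP, the subunit that recognizes phosphorylated STK3 and STK4, averaged 27.1 FPKM at 0h and 53.2 at 216h (log2 fold change 1.03, adjusted p = 0.0305). CTTNBP2NL, another subunit, averaged 17.0 and 29.3 (0.75, adjusted p = 0.00160), and PPP2CA, a catalytic subunit of the phosphatase PP2A, 32.8 and 53.4 (0.69, adjusted p = 0.00134). After median scaling, 4 of 24 were called higher, beside 8.72% of all genes. CTTNBP2NL and PPP2CA were among the 4 (adjusted p = 0.0168 and 0.00985, limma), and SLMAP was not (0.0829).

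Of 14 tested genes that act on phosphorylated YAP1 and TAZ, 4 were higher and 0 lower at 216h than at 0h, beside 19.7% of all genes higher. YWHAH and YWHAE, of the 14-3-3 proteins that hold phosphorylated YAP1 in the cytoplasm, averaged 21.8 and 20.9 FPKM at 0h and 37.0 and 33.0 at 216h (log2 fold change 0.74 and 0.64, adjusted p = 0.000196 and 0.00370). FBXW11, a subunit of the ubiquitin ligase that marks YAP1 for degradation, was at 10.2 to 12.9 FPKM at 0h and at up to 18.2 at 216h (log2 fold change 0.40, adjusted p = 0.0275). After median scaling 2 of the 14 were higher and 2 lower, beside 8.72% and 11.2% of all genes. YWHAH and YWHAE kept their calls (adjusted p = 0.00424 and 0.0498, limma), and FBXW11 did not (0.361). The last list, relatives of the cofactors, had 2 genes tested and 0 called in any comparison.

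The genes whose pattern over the 18 tumors was most like that of LATS1 after median scaling were PLPP5 (Pearson's r = 0.902, Spearman's rho = 0.922), YWHAE (0.848 and 0.835) and LAMTOR1 (0.825 and 0.833). For NF2 they were GLO1 (0.847 and 0.715), RARS (0.841 and 0.765) and NTMT1 (0.827 and 0.775). SAV1 was closest to RAB40C (0.803 and 0.756), and LATS2 to SHC2 (0.761 and 0.723). These are the highest values among all genes tested, over tumors that share groups, cages and libraries, and are given as a description with no test.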

How the data were processed

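RNA of 18 xenograft tumors was measured, 1 tumor per mouse, and groups were taken from the sample labels. Per the labels and the study's methods, the authors made exome-capture libraries, in which probes enrich annotated exons, and sequenced them in paired-end reads; the submitters' processing notes name STAR and GRCh38. The authors deposited 1 table of FPKM per gene and tumor; the unit was inferred from the values and the study's supplement. How reads were quantified, with which annotation, and whether mouse reads were removed is not given in the sources used here. Reads of mouse cells may therefore count toward human genes. FPKM is divided by the total of mapped fragments, so that a gene with a large share moves all others. The table holds 4 blank cells, read as 0. No counts were used, so depth is unknown and no counting interval was computed. No pair of tumors was identical.

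The main test was limma 3.58.1 under R 4.3.3, run as lmFit and eBayes with a trend on log2(FPKM + 1) with all 4 groups in the model; this scale understates changes of low genes. It covered the 11379 of 20555 entries with at least 1 FPKM in at least 4 tumors. Adjusted p is by Benjamini-Hochberg over all of them, with a threshold of 0.05. Ratios were tested with exact permutation tests (scipy 1.17.1), adjusted over 9. Tables were handled in Python 3.11.15 with pandas 2.3.3 and numpy 2.4.6, and figures drawn in matplotlib 3.10.9. The limma step was tested on simulated data. Alternatives were no filter, a filter of 5 FPKM, a pseudocount of 0.1, other scalings, a fit of the 2 groups compared, no trend, a covariate for genes at 0 and leaving out each tumor. Gene intervals follow GENCODE release 29, which 9 of the 10 members match.

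The members and lists were chosen with earlier results of these data known. Named from the lists were up to 3 genes per direction with an adjusted p under 0.05, no overlap and the largest change, of which some at 216h against 96h are left out; likeness was ranked by Pearson's r.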

Additional observations from a re-analysis of the deposited data

Results flagged for a closer look

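WWC1 had 1 tumor far from its group. At 96h replicate 4 was at 14.3 FPKM and the next highest at 6.89, a gap of 0.796 of the range of the group, against a critical value of 0.71 in Dixon's test for 5 samples. It was 1 of 40 combinations of gene and group examined, of which chance alone would mark about 2. Without this tumor the log2 fold change of WWC1 at 96h against 0h was -0.47 in place of -0.23, and neither passed the threshold.

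The change of LATS2 differed between the late groups. It was -0.10 at 96h and 0.34 at 216h on the log2 scale, both against the same 0h tumors, and the difference of 0.44 had an adjusted p of 0.0363 in limma. The difference was not called after any of the 3 other scalings.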

How the results depend on the processing

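No paired analysis was possible because each mouse gave 1 tumor and the labels share no replicate number between groups.

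Depth is unknown, groups hold 4 or 5 tumors, and each is 1 cage group. At 24h and 96h 0 members were called under every alternative run. Against 0h at 216h, 2 were called with no filter, a pseudocount of 0.1, no trend or the covariate for genes at 0; the count was 1 with the filter of 5 FPKM (SAV1 and LATS2 not tested), 1 in a fit of the 2 groups, 1 without the mitochondrial genes, 1 (NF2, lower) after median scaling and 0 after quantile normalization. At 216h against 96h it was 1 with no filter, a pseudocount of 0.1 or no trend, and 0 with the filter of 5 FPKM, quantile normalization, median scaling, rescaling without mitochondrial genes, the 2 groups alone or the covariate. Leaving out each tumor gave 1 to 3 members at 216h against 0h and 0 to 1 against 96h. Apart from the filter, which left genes out, the cause was not tested.

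Of all genes, 18 were called at 24h, but 32 with the filter of 5 FPKM, 0 with 2 groups alone, 6 with the covariate, and 7 to 25 without a tumor; 157 at 96h, but 27 with the covariate and 74 to 152 without a tumor; and 1260 at 216h against 96h, but 692 after quantile normalization, 657 after median scaling, 632 without mitochondrial genes, 45 with the covariate and 708 to 1284 without a tumor.

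Log2 fold changes of members that were not called changed sign as follows. At 216h against 0h, STK3, WWC1, MOB1A and TAOK1 were at -0.12, -0.19, -0.063 and -0.036 after quantile normalization and -0.12, -0.21, -0.17 and -0.10 after median scaling, the first 3 at -0.0043, -0.081 and -0.033 without mitochondrial genes, and WWC1 at -0.10 with the covariate. At 216h against 96h, STK4, MOB1B and NF2 were at -0.20, -0.077 and -0.13 after quantile normalization, -0.21, -0.078 and -0.13 after median scaling (MOB1A -0.021) and -0.13, -0.017 and -0.069 without mitochondrial genes, and STK3 and MOB1B at -0.19 and -0.066 with the covariate. At 24h TAOK1 was at 0.041 and 0.026 after quantile normalization and median scaling, and STK3, MOB1A, TAOK1 and MOB1B at 0.052, -0.041, 0.070 and 0.056 with the covariate, under which STK3, TAOK1 and MOB1B were at 0.44, 0.091 and 0.041 at 96h.

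Without a tumor, log2 fold changes that changed sign ran at 24h from -0.054 to 0.038 (MOB1A), -0.090 to 0.035 (TAOK1), -0.26 to 0.072 (WWC1), -0.19 to 0.039 (MOB1B) and -0.044 to 0.15 (LATS1); at 96h from -0.38 to 0.068 (STK3) and -0.0044 to 0.12 (SAV1); at 216h from -0.11 to 0.019 (STK4), -0.096 to 0.21 (WWC1), -0.21 to 0.33 (STK3) and -0.21 to 0.020 (MOB1B); and at 216h against 96h from -0.024 to 0.074 (STK4) and -0.043 to 0.42 (STK3). Differences of log2 ratios ran from -0.078 to 0.33 (STK4 to STK3, 96h), -0.31 to 0.22 (the same, 216h), -0.21 to 0.0075 and -0.21 to 0.0044 (MOB1B to MOB1A, 24h and 96h), and, with an unadjusted exact permutation p as low as 0.0317 and 0.0286, from -0.37 to -0.21 and -0.28 to -0.087 (LATS2 to LATS1, 96h and 216h; adjusted p at least 0.214 in the fits without a 0h tumor, and not adjusted in the others). STK4 to STK3 at 24h was at -0.033 among tumors with many zeros. LATS1 at 216h kept its direction under every alternative, from 0.31 to 0.63.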
